A study of Homo sapiens with 4 samples.

Results

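The genes described here code for enzymes that chemically modify RNA, apart from the catalytic and core subunits of messenger RNA m6A writing. They were taken by name: protein-coding genes whose symbol begins with METTL, NSUN, TRMT, PUS, ADAR, ADAT, FTSJ or DUS followed by a digit, without METTL3, METTL14 and METTL16. This gave 63 genes of the 60544 in the deposited table, of which 19931 are protein-coding. By general knowledge 50 of the 63 are RNA enzymes or their subunits. The other 13 are METTL genes, 9 with known or proposed protein or small-molecule substrates and 4 whose substrate is not assumed here, so the name rule reaches beyond RNA modification.

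Poly(A) RNA was sequenced from PC3, an established human prostate cancer cell line, to compare METTL3 knockdown with control. All 4 libraries came from the same line grown in RPMI medium with fetal bovine serum. The control group, labelled shNC, and the group labelled sh812 had 2 libraries each. sh812 is read as the METTL3 short hairpin because it is the only label besides shNC. The labels name 1 hairpin, and how it was delivered, how long the knockdown lasted and whether replicates were separate cultures are not given in the sources used here. If they were not separate cultures, p-values measure only the spread between these libraries, which may be technical.

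RNA carries many chemically changed bases besides m6A. Transfer RNAs are the most heavily modified: methyl groups, pseudouridine, dihydrouridine and inosine help them fold, resist decay and read codons. Ribosomal RNAs receive methyl groups and pseudouridines during ribosome assembly, and mitochondria use a nuclear-encoded set of such enzymes for their own tRNAs and rRNAs. ADAR deaminates adenosine to inosine in double-stranded RNA, which keeps a cell's own RNA from triggering antiviral sensors. Several enzymes work only with a partner protein, so both members of a pair are given together below.

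Total gene counts per library ranged from 31450648 to 37041330. The targeted gene METTL3 was counted 1682 and 1379 times with shNC but 269 and 313 times with sh812, which is 18.7% of the control level after scaling (log2 fold change -2.42, SE 0.11, adjusted p = 5.54e-14 in edgeR). The epithelial markers KRT8, KRT18, KRT19, EPCAM and CDH1 were present in each library, with a summed level of 816 and 921 CPM (counts scaled to each library's size) in shNC and 956 and 1017 CPM in sh812. The prostate antigen gene KLK3 had 0 counts in each library. Among markers of other cell types, CD3E had 0 counts, and the 3 hematopoietic markers together did not exceed 0.870 CPM. The 3 fibroblast markers together ran from 4.24 to 6.37 CPM. Of the 2 endothelial markers, CDH5 had at most 6 counts and PECAM1 ran from 23.7 to 38.5 CPM. The epithelial and endothelial sums were higher in both sh812 libraries than in both shNC libraries, and their part in the results below was not tested.

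Some members have close copies elsewhere in the genome, which bears on how far their counts can be trusted. METTL2A and METTL2B, on chromosomes 17 (62423867 to 62450822) and 7 (128476729 to 128506602) in GENCODE 29, code for tRNA 3-methylcytidine enzymes. Their coding sequences of 1137 bases align without gaps and differ at 16 bases (98.6% identity). The stretch below, coding bases 775 to 864 in both genes, is shown because it is a 90-base stretch with as many differences as any other, and still has only 4 (capitals). 
METTL2A: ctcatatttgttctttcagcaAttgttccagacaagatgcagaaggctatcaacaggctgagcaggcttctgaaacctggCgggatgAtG
METTL2B: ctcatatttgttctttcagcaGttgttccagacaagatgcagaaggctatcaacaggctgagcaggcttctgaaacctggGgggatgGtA
Of the 150-base windows in the annotated transcripts of each gene, some also occur in a transcript of another gene. The share was 8.78% for METTL2A and 8.62% for METTL2B. For METTL2B this is not all METTL2A, since 377 of its 612 shared windows occur in AC010655.4. That gene overlaps METTL2B on the same strand and had 0 counts in each library. NSUN5, an rRNA methyltransferase gene, has the transcribed pseudogene NSUN5P1, whose row held 207 and 162 counts in shNC and 165 and 137 in sh812. The next pair, from coding base 815 to 904 of NSUN5, is shown because no gap-free 90-base stretch of their local alignment has more differences. It has 11, in capitals. The alignment has 1201 columns, of which 286 are gaps. Coding bases at gaps or outside the alignment were not compared.
NSUN5: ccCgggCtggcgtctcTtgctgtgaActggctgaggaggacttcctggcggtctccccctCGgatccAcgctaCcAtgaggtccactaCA
NSUN5P1: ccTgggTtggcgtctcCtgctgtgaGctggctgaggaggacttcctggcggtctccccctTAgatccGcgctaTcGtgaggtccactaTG
NSUN5 shares 5.32% of its windows with other genes. Of these 219 windows, 215 occur in NSUN5P2, another transcribed pseudogene, with 5 and 6 counts in shNC and 14 and 2 in sh812. ADAT3, whose exons overlap SCAMP4 on the same strand of chromosome 19, shares 20.8%. In 53 of the 63 members no such window is shared. The 7 members called below are all among those 53. The library protocol marks strand, but whether counting used it is not given in the sources used here, so reads of a gene on the opposite strand may enter where exons overlap. Besides overlaps named below, this applies among others to METTL1 with EEF1AKMT3 (19.3% of exon bases) and DUS2 with DDX28 (10.9%). It also applies to DUS4L with COG5 (10.2%) and TRMT2A with RANBP1 (9.9%). METTL1 overlaps CYP27B1 on the same strand (4.1%).

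Of the 63 members, 58 passed the low-count filter and were tested. METTL11B, METTL21C and METTL24 had 0 counts in each library, ADARB2 had 2 counts in 1 shNC library and TRMT9B had 5 counts in 1 shNC library. These 5 were at or close to the floor of 3 counts and are given no fold change. The members together took 0.283% and 0.277% of all counts with shNC, against 0.295% and 0.285% with sh812.

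Levels are compared between genes as CPM per kb of annotated exon, averaged over the 4 libraries. TRMT112, the small protein that stabilises and activates several RNA methyltransferases, was the highest at 103 CPM per kb. FTSJ3, which acts in ribosomal RNA processing, and FTSJ1, which methylates the ribose of tRNA anticodon loops, followed at 51.9 CPM per kb each, and then NSUN2 at 43.5, TRMT10C at 41.4 and ADAR at 37.7. The lowest tested RNA enzymes were NSUN7 at 0.758, PUS10 at 0.801 and ADAT3 at 0.980 CPM per kb. The median over tested members was 5.54 CPM per kb, and the median over all genes tested was 3.29.

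**Figure D1:**
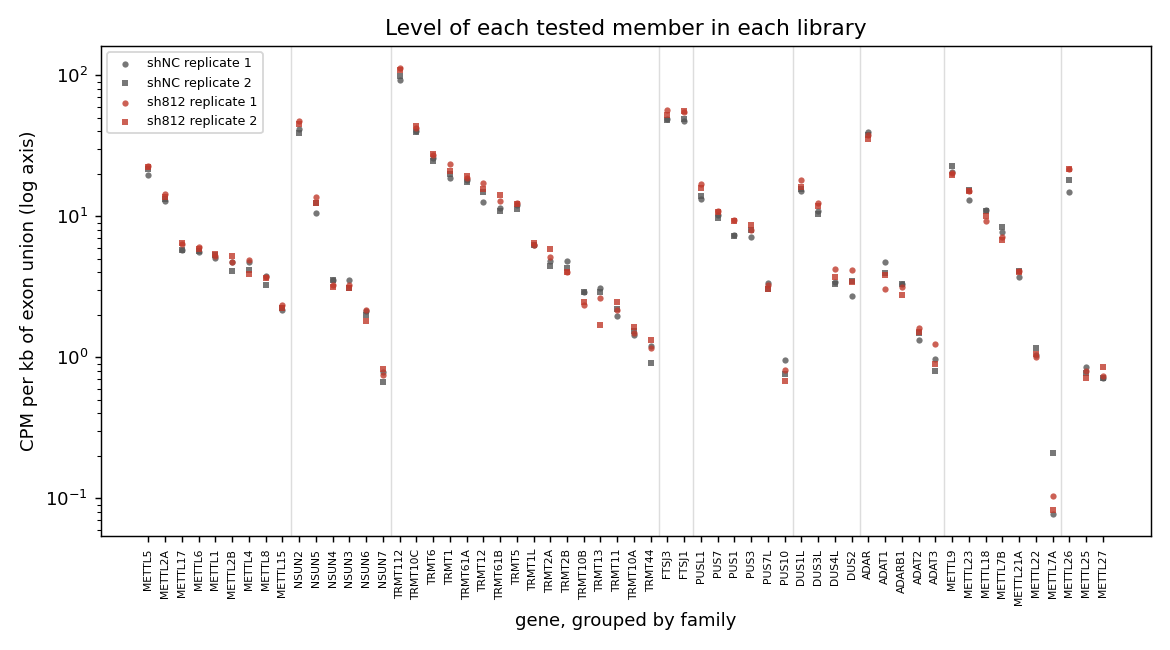
CPM per kb of annotated exon (log axis) of the 58 tested members in each of the 4 libraries, grouped by family and sorted by level within a family; grey marks are shNC and red marks sh812, circles replicate 1 and squares replicate 2. Levels range from 0.118 (METTL7A) to 103 CPM per kb (TRMT112), while the libraries of 1 gene lie close together by comparison.

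Knockdown of METTL3 went with small changes in this set. Of the 58 tested members, 6 were called higher in sh812 and 1 lower, taking adjusted p-values below 0.05 from the quasi-likelihood test of edgeR, with Benjamini-Hochberg adjustment across 16802 genes. The 7 called members are 12.1% of those tested, against 10.8% of all genes tested, so the share of called genes was near the background. By direction, 10.3% of the members were called higher against 5.43% of all genes, and 1.72% lower against 5.42%. Of the 13250 protein-coding genes tested, 13.0% were called, 6.39% higher and 6.62% lower. The 6 members called higher were PUS1, METTL26, TRMT112, NSUN2, FTSJ1 and PUSL1, and the member called lower was TRMT13. Which members were called changed with the library left out, and so did the number of all genes called. With each library left out in turn, the members' median log2 fold change ran from 0.0735 to 0.103. The median over all genes tested then ran from -0.00827 to 0.00268. In bulk RNA a lower level can come from fewer expressing cells or from less RNA per cell, and these cannot be told apart.

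The median log2 fold change of the 58 members was 0.111, against -0.00563 over all genes tested. The fitted change was above 0 for 40 members (69.0%) and below 0 for 18, where 49% of all genes tested were above 0. Both sh812 libraries lay above both shNC libraries in 28 members (48.3%, against 26.2% of all genes tested) and below them in 9 (15.5%, against 27.4%), and the groups overlapped in 21. The 48 tested members with an RNA substrate had a median of 0.119, with 36 above 0. The 10 tested METTL members with another or unsure substrate had a median of -0.0973, with 4 above 0. The difference between these 2 sets was not tested. The median over all members stayed above 0 under each scaling, and was 0.0658 with library size alone, where the median of all genes was -0.0503.

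**Figure D2:**
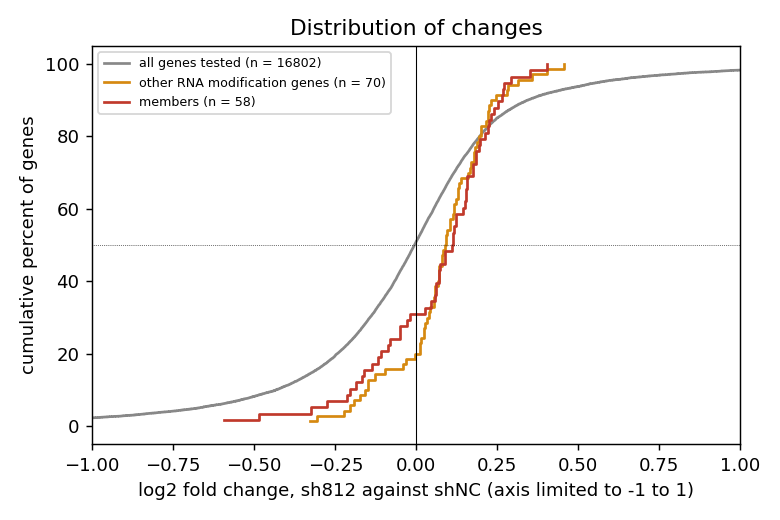
Cumulative percent of genes (vertical axis) against log2 fold change, sh812 against shNC (horizontal axis, limited to -1 to 1), for the 58 tested members (red), 70 other RNA modification genes (orange) and all 16802 genes tested (grey). The red and orange curves cross 50% at 0.111 and 0.0892, to the right of the grey curve at -0.00563.

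The METTL genes that modify RNA did not pass the test in either direction. This group of 9 holds METTL5, which places m6A on the small-subunit rRNA, METTL4, which methylates a spliceosomal RNA, METTL1, which makes 7-methylguanosine in tRNA, and the 3-methylcytidine enzymes METTL2A, METTL2B, METTL6 and METTL8. It also holds METTL15, which methylates mitochondrial rRNA, and METTL17, which acts in mitochondrial ribosome assembly. At an unadjusted p under 0.05, 0 of the 9 were higher and 0 lower, where 11.9% and 12.9% of all genes tested were. Their fitted log2 fold changes ran from -0.0192 for METTL4 to 0.174 for METTL2B, with a median of 0.0720, and 8 of 9 were above 0 (7 with library size alone).

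METTL5, the most abundant of the 9 per kb, had 56.2 and 62.5 CPM in shNC and 64.8 and 64.2 CPM in sh812. Both sh812 values were above both shNC values by a small margin (log2 fold change 0.12, SE 0.07, adjusted p = 0.329 in edgeR). SSB overlaps 572 of its 2865 annotated exon bases on the opposite strand. METTL1 had 13.4 and 14.0 CPM in shNC and 13.7 and 14.2 CPM in sh812, so its groups overlapped (log2 fold change 0.03, SE 0.12). For WDR4, the subunit that METTL1 needs to bind tRNA, the change was 0.22 on the log2 scale (SE 0.08, edgeR adjusted p 0.0831). METTL2A and METTL2B had log2 fold changes of 0.11 (SE 0.08) and 0.17 (SE 0.09), with the limit that their counts may be partly exchanged.

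NSUN2 was the 1 of 6 NSUN genes that was called, where 10.8% of all genes tested were. It places 5-methylcytidine in tRNAs and in some messenger RNAs. It is on chromosome 5, minus strand, at 6599239 to 6633291. NSUN2 had 231 and 213 CPM in shNC and 263 and 251 CPM in sh812, a rise from 222 ± 12.3 to 257 ± 8.73 CPM (SD, n = 2). Both sh812 libraries were above both shNC libraries (log2 fold change 0.21, SE 0.06, adjusted p = 0.0252 in edgeR). The adjusted p was 0.371 without sh812 replicate 1, 0.136 without sh812 replicate 2 and 0.0772 with library size alone.

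The other NSUN genes went both ways without passing the test. NSUN5 had 35.8 and 42.8 CPM in shNC and 46.5 and 42.7 CPM in sh812, and its groups overlapped (log2 fold change 0.19, SE 0.09, adjusted p = 0.202 in edgeR). It was called higher without shNC replicate 2. NSUN4, which methylates mitochondrial rRNA, had 29.8 and 30.2 CPM in shNC and 27.7 and 26.8 CPM in sh812, with both sh812 values lower (log2 fold change -0.14, SE 0.09, adjusted p = 0.379 in edgeR). NSUN3, which modifies mitochondrial methionine tRNA, NSUN6, a tRNA enzyme, and NSUN7 had log2 fold changes of -0.05, -0.05 and 0.12, and their groups overlapped.

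The TRMT group is the largest, with 16 of 17 genes tested. TRMT112 was called higher and TRMT13 lower (5.43% and 5.42% of all genes tested were). The fitted change was above 0 in 13 of 16 (12 with library size alone), with a median log2 fold change of 0.115. At an unadjusted p under 0.05, 5 of the 16 were higher and 1 lower (11.9% and 12.9% of all genes tested). Both sh812 libraries lay above both shNC libraries in 10 of the 16 and below in 3, against 26.2% and 27.4% of all genes tested.

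TRMT112 is on chromosome 11, minus strand, at 64316460 to 64318084. It had 150 and 161 CPM in shNC and 183 and 179 CPM in sh812, with both sh812 libraries higher. The group means were 155 ± 7.72 and 181 ± 2.704 CPM (SD, n = 2), a difference of 0.22 on the log2 scale (SE 0.06, edgeR adjusted p 0.0198). It overlaps ESRRA on the opposite strand over 17.5% of its exon bases, and ESRRA reads may be among its counts. The call was lost without sh812 replicate 1 (adjusted p = 0.267), without sh812 replicate 2 (0.162) and with library size alone (0.0527). With each library's trend on exon length removed, the log2 fold change was 0.11 (adjusted p = 0.22).

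The enzymes set here beside TRMT112 as its partners did not pass the test. METTL5 is given above. TRMT11, which methylates guanosine in tRNA, had a log2 fold change of 0.16 (SE 0.13), BUD23, an rRNA methyltransferase, 0.10 (SE 0.06), and THUMPD3, a tRNA methyltransferase, -0.00395 (SE 0.08). ALKBH8, which finishes a wobble uridine modification in tRNA, went from a mean of 20.4 ± 0.0113 CPM to one of 16.5 ± 0.354 CPM (SD, n = 2 each), at a log2 fold change of -0.31 (SE 0.11, edgeR adjusted p 0.0658).

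TRMT13 methylates the ribose of a base in the acceptor stem of certain tRNAs. It lies on the plus strand of chromosome 1 from 100133150 to 100150497. TRMT13 had 488 and 380 counts in shNC and 380 and 249 in sh812, or 12.9 and 12.02 CPM against 10.8 and 6.96 CPM. Both sh812 libraries were lower, but sh812 replicate 2 lay much lower than replicate 1. The fitted log2 fold change was -0.49 (SE 0.16, adjusted p = 0.0489 in edgeR). It was -0.20 without sh812 replicate 2 (adjusted p = 0.62), -0.84 without sh812 replicate 1 and -0.44 without shNC replicate 1 (adjusted p = 0.056). The adjusted p was 0.172 in DESeq2. LRRC39 overlaps 13.1% of its exon bases on the opposite strand and had 10, 9, 8 and 24 counts, in the order shNC 1, shNC 2, sh812 1, sh812 2.

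Another 4 TRMT genes had an unadjusted p under 0.05 and were not called. TRMT12, which takes part in making wybutosine in phenylalanine tRNA, had 29.3 and 34.5 CPM in shNC and 40.4 and 36.5 CPM in sh812 (log2 fold change 0.27, SE 0.09, adjusted p = 0.0639 in edgeR). TRMT61B, a mitochondrial 1-methyladenosine enzyme, had 23.7 and 22.6 CPM in shNC and 26.6 and 29.03 CPM in sh812 (log2 fold change 0.26, SE 0.10, adjusted p = 0.0828 in edgeR). TRMT1, which dimethylates a guanosine in tRNA, and TRMT2A, which makes 5-methyluridine in tRNA, had log2 fold changes of 0.19 and 0.24, with edgeR adjusted p-values of 0.0935 and 0.166. In each of these 4 genes the lower sh812 library was above the higher shNC library. TRMT1 and TRMT12 were called higher without shNC replicate 2.

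The TRMT6 and TRMT61A proteins form the enzyme for 1-methyladenosine in cytosolic tRNA. Their log2 fold changes were 0.12 (SE 0.06) and 0.09 (SE 0.07). TRMT10C, a subunit of mitochondrial RNase P that also methylates tRNA, and its partner HSD17B10 had 0.11 (SE 0.07) and 0.18 (SE 0.07, adjusted p = 0.091 in edgeR). None of these 4 genes passed the test. TRMT2B and TRMT10B had both sh812 libraries below both shNC libraries, with log2 fold changes of -0.17 (SE 0.11) and -0.28 (SE 0.15).

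FTSJ1 and FTSJ3 were both higher in each sh812 library, and FTSJ1 was called. FTSJ1, a gene mutated in an X-linked form of intellectual disability, lies on the plus strand of chromosome X from 48476021 to 48486364. It had 136 and 141 CPM in shNC and 158 and 160 CPM in sh812, with group means of 139 ± 3.74 and 159 ± 1.58 CPM (SD, n = 2). Its log2 fold change was 0.20 (SE 0.06, adjusted p = 0.0349 in edgeR). The adjusted p was 0.267 without sh812 replicate 1, 0.318 without sh812 replicate 2, 0.0945 with library size alone and 0.12 with the length trend removed. WDR6, the partner with which FTSJ1 methylates the wobble position, had a log2 fold change of 0.05 (SE 0.06). FTSJ3 had 257 and 251 CPM in shNC and 299 and 275 CPM in sh812 (log2 fold change 0.18, SE 0.06, adjusted p = 0.0592 in edgeR), and was called in DESeq2, in limma-voom, with no low-count filter and with either one of the shNC replicates left out. PSMC5 overlaps 16.8% of the FTSJ3 exon bases on the opposite strand.

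Of the 6 pseudouridine synthase genes, PUS1 and PUSL1 were called higher, where 5.43% of all genes tested were. PUS1 makes pseudouridine in nuclear, cytosolic and mitochondrial RNAs, and its loss causes an inherited myopathy with anemia. It lies on the plus strand of chromosome 12 from 131929200 to 131945896. PUS1 had 42.4 and 41.5 CPM in shNC and 54.0 and 53.1 CPM in sh812. The replicates were close and the groups well apart, at 41.9 ± 0.683 and 53.6 ± 0.570 CPM (SD, n = 2), with sh812 at 128% of shNC. The log2 fold change was 0.35 (SE 0.08, adjusted p = 0.0043 in edgeR). It had the smallest p-value among the members, and its adjusted p was 0.0764 without sh812 replicate 1.

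PUSL1, a related synthase that acts on mitochondrial RNA, lies on the plus strand of chromosome 1 from 1308567 to 1311677. It had 33.0 and 34.9 CPM in shNC and 41.9 and 39.8 CPM in sh812, a difference of 0.27 on the log2 scale (SE 0.08, edgeR adjusted p 0.0423). Both sh812 libraries were higher, but the call was lost in several alternatives. Its adjusted p was 0.121 without shNC replicate 1, 0.374 without sh812 replicate 1 and 0.159 without sh812 replicate 2. It was 0.0952 with library size alone, 0.0924 in DESeq2, 0.0596 when no genes were filtered out, and 0.128 after removing the length trend. ACAP3 and INTS11 overlap 6.7% and 3.7% of its exon bases on the opposite strand.

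PUS7, which modifies tRNAs and messenger RNAs, and PUS3, which acts on the anticodon arm of tRNA, had log2 fold changes of 0.11 (SE 0.08) and 0.15 (SE 0.12), with both sh812 libraries higher. PUS7L and PUS10 had log2 fold changes of -0.03 (SE 0.08) and -0.20 (SE 0.17), and their groups overlapped.

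The 4 dihydrouridine synthase genes were all above 0 and were not called. These enzymes reduce uridine in tRNA, mainly in the loop named for the product. Their log2 fold changes were 0.29 for DUS2 (SE 0.13), 0.22 for DUS4L (SE 0.11), 0.18 for DUS3L (SE 0.08) and 0.15 for DUS1L (SE 0.07), with adjusted p-values in edgeR from 0.161 to 0.197. Each had an unadjusted p under 0.05, where 11.9% of all genes tested had one and were higher. DUS1L, the most abundant per kb, had 90.8 and 93.9 CPM in shNC and 109 and 96.3 CPM in sh812. DUS2 had 12.1 and 15.6 CPM in shNC and 18.5 and 15.4 CPM in sh812, and was the one in which the groups overlapped. DUS1L and DUS2 were called higher when shNC replicate 2 was left out.

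The adenosine deaminases did not pass the test in either direction. At an unadjusted p under 0.05, 0 of the 5 tested were higher and 1, ADAT1, was lower (11.9% and 12.9% of all genes tested). ADAR, by far the most abundant of them, had 385 and 367 CPM in shNC and 368 and 343 CPM in sh812. Its groups overlapped, at a log2 fold change of -0.08 (SE 0.06, edgeR adjusted p 0.418). ADARB1, the second editing enzyme of double-stranded RNA, had 33.4 and 33.3 CPM in shNC and 31.9 and 27.7 CPM in sh812 (log2 fold change -0.16, SE 0.09, adjusted p = 0.294 in edgeR). ADARB2, a brain gene of this family, was at the floor.

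Among the tRNA deaminases, ADAT1, which acts next to the anticodon of alanine tRNA, had 21.1 and 17.8 CPM in shNC and 13.8 and 17.4 CPM in sh812. Both sh812 libraries were lower, 1 of them only just (log2 fold change -0.32, SE 0.12, adjusted p = 0.0926 in edgeR). It was called lower without shNC replicate 2 and without sh812 replicate 2. ADAT2 and ADAT3 form the enzyme that makes inosine at the wobble position. ADAT2 had a log2 fold change of 0.15 (SE 0.13), and ADAT3, with 57 to 97 counts per library and reads that SCAMP4 can share, had 0.25 (SE 0.29).

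METTL26, whose substrate is not assumed here, had the largest called increase. It is on chromosome 16, minus strand, at 634427 to 636366. METTL26 had 1038 and 1042 counts in shNC and 1392 and 1430 in sh812, or 27.4 and 32.9 CPM against 39.7 and 40.0 CPM. The sh812 libraries lay close together and above both shNC libraries, which differed more from each other. The log2 fold change was 0.40 (SE 0.09, adjusted p = 0.0064 in edgeR), and 0.27 without shNC replicate 1 (adjusted p = 0.0521). METTL25 and METTL27 were low, with 90 to 119 and 33 to 45 counts per library, and log2 fold changes of -0.11 (SE 0.24) and 0.16 (SE 0.40).

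The METTL genes with protein or small-molecule substrates were not called, and 5 of the 7 tested were below 0 (6 with the length trend removed). At an unadjusted p under 0.05, 0 were higher and 0 lower (11.9% and 12.9% of all genes tested). METTL9, a protein histidine methyltransferase gene and the most abundant of them per kb, had 146 and 161 CPM in shNC and 144 and 139 CPM in sh812 (log2 fold change -0.12, SE 0.06, adjusted p = 0.255 in edgeR), and was called lower when shNC replicate 1 was left out. METTL18, which methylates a histidine of a ribosomal protein, and METTL7B, a thiol methyltransferase gene, had log2 fold changes of -0.19 (SE 0.11) and -0.21 (SE 0.13). In these 3 genes both sh812 libraries lay below both shNC libraries. METTL21A, METTL22 and METTL23 had log2 fold changes of 0.06, -0.09 and 0.09, and METTL7A had only 12 to 27 counts per library.

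**Figure D3:**
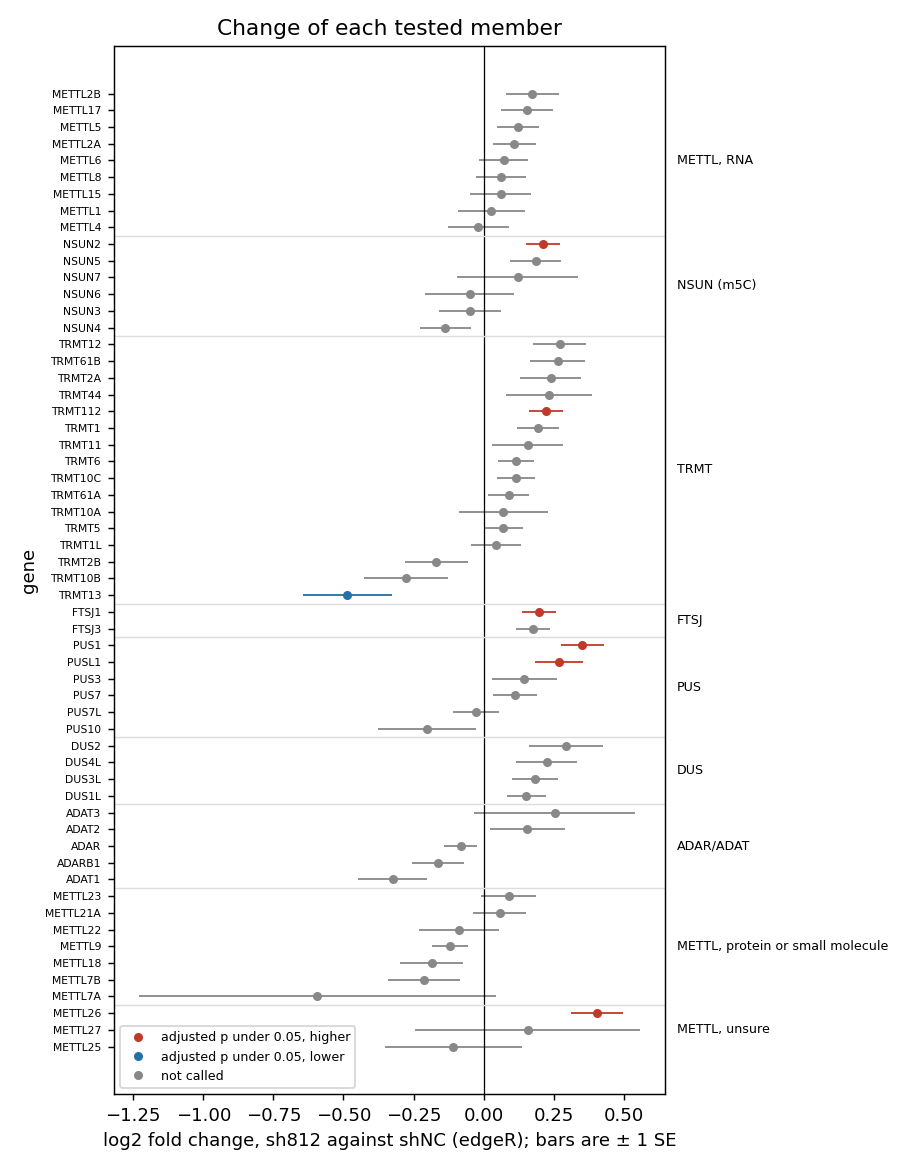
Log2 fold change, sh812 against shNC, of each of the 58 tested members (horizontal axis; bars are ± 1 SE from edgeR), grouped by family, with called genes in red (higher) or blue (lower). The 4 DUS genes and both FTSJ genes lie to the right of 0, as do 13 of 16 TRMT genes (12 with library size alone), while 5 of the 7 METTL genes with protein or small-molecule substrates lie to the left (6 with the length trend removed).

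The 7 called members are set out by library in the plot of percent of the shNC mean. Among those called higher, the sh812 means ran from 115% (FTSJ1) to 132% (METTL26) of the shNC mean, and TRMT13 was at 71.5%. No called member changed by as much as METTL3 itself, which was at 18.7%.

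**Figure D4:**
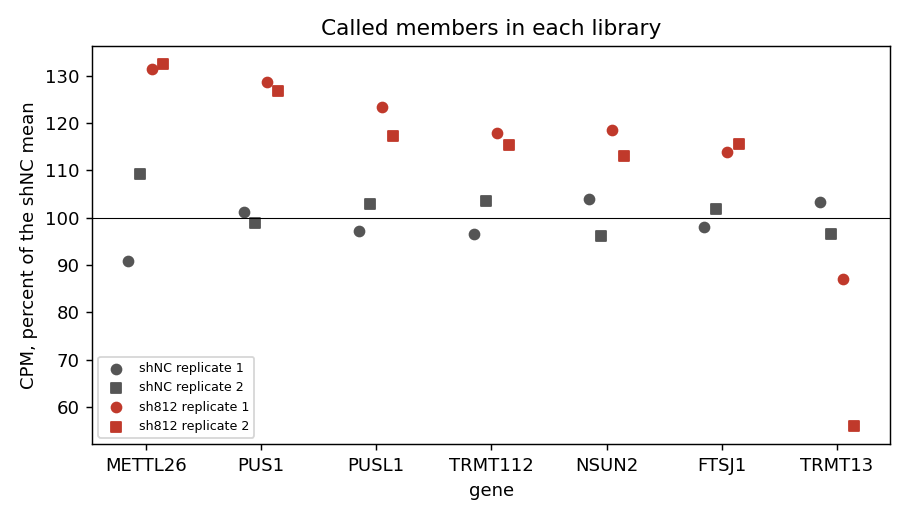
CPM as percent of the shNC mean (vertical axis) for the 7 called members (horizontal axis) in each library; grey marks are shNC, red marks sh812, circles replicate 1 and squares replicate 2. In METTL26, PUS1, PUSL1, TRMT112, NSUN2 and FTSJ1 both red marks lie above both grey marks, and in TRMT13 both lie below, with sh812 replicate 2 farthest down.

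Other genes of RNA modification that the name rule does not reach were followed as a list of 71, of which 70 were tested (the mitochondrial rRNA methyltransferase gene MRM2 was too low). Of these, 5 (7.14%) were called higher and 0 lower in edgeR, against 5.43% and 5.42% of all genes. Among protein-coding genes tested the shares were 6.39% and 6.62%. At an unadjusted p under 0.05, 19 of the 70 were higher and 5 lower (11.9% and 12.9% of all genes tested). DESeq2 also called 0 lower, but 3 were called lower with library size alone, where 1328 of 16802 genes were. With the replicate block, with the length trend removed and when only genes averaging 1 CPM or more were kept, 1 each was called lower. The list's median log2 fold change was 0.0892, with 56 of 70 above 0 (49% of all genes tested). Among the genes called were FBL, the ribose methyltransferase of the box C/D ribonucleoproteins, OSGEP, which belongs to a complex that modifies the anticodon loop of tRNA, CTU2, which takes part in tRNA thiolation, and RPUSD2, a pseudouridine synthase.

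FBL had 211 and 218 CPM in shNC and 281 and 268 CPM in sh812, which is 0.36 higher on the log2 scale (SE 0.06, edgeR adjusted p 0.000245). OSGEP had 31.3 and 34.5 CPM in shNC and 45.1 and 45.1 CPM in sh812, with a log2 fold change of 0.46 (SE 0.08). For CTU2 and RPUSD2 the log2 fold changes were 0.40 and 0.28. In these 4 genes both sh812 libraries were above both shNC libraries. The number of genes of the list called higher changed with the library left out, as it did over all genes tested.

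Changes in these data varied with gene length, and the same held for the members. Across 58 members the Spearman correlation of the log2 fold change with annotated exon length was -0.25, and across 16635 tested genes with a gene model it was -0.20. The difference between the shNC replicates, as replicate 2 over replicate 1, had correlations of -0.28 and -0.17 with length in the same sets. In the 12257 genes above a level limit, it was -0.297 for sh812 against shNC and -0.304 for shNC replicate 2 over 1. For sh812 replicate 2 over 1 it was 0.0310. Genes of 1 library share its depth and handling, so the correlations are descriptions only. After removal of each library's length trend, FTSJ1, PUSL1 and TRMT112, with 2872, 2489 and 1625 exon bases, were no longer called, FTSJ3 was, and NSUN2, PUS1, METTL26 and TRMT13 were called as before. The members' median was then 0.0901, against -0.00968 over all genes tested.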

How the data were processed

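The deposited values are read counts per gene in 4 libraries, whole numbers that the authors had not normalized. fastp, STAR 2.7.1a, featureCounts, DESeq2 and hg38 are named, without roles, per the submitters' processing notes. The annotation, and whether strand was used, are not given in the sources used here. Of counts from 1 to 20, 69.5% to 69.9% were even, so a read pair may often count as 2.

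Under R 4.3.3, edgeR 4.0.16 was run (filterByExpr, TMM, glmQLFit and glmQLFTest, no covariate) on the whole table. Genes were called at a Benjamini-Hochberg adjusted p under 0.05 over 16802 genes. SE is the log2 fold change over the root of the F statistic (prior count 0.125), and CPM uses TMM-scaled library sizes. Chi-square per gene was 8.43 (shNC) and 4.51 (sh812) between replicates, which does not show whether they were separate cultures. Each library was entered as a sample of its own. Positions, exon lengths, overlaps and sequences come from GENCODE 29 (GRCh38), which had a model for all 63 members.

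Each called member, the most abundant tested member of each family and the stated partners are given in detail. Some marker and list genes are not reported here. The members and lists were chosen with earlier results of these data known. Alternatives were other scalings and filters, DESeq2 1.42.0, limma-voom (limma 3.58.1), a replicate block, a prior count of 2, removal of each library's length trend (lowess, span 0.3) and leaving out each library. In simulated data with 16423 genes tested, the test found 81% of the genes given a log2 change of 0.5, and 6 unchanged genes passed. The smallest change given was 0.5, and only genes above a CPM limit were given one. The rate does not cover smaller changes, such as those of the members called higher.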

Additional observations from a re-analysis of the deposited data

How the results depend on the processing

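All alternatives were planned. METTL3 stayed called in the 13 alternatives run for it, from -2.52 to -2.33. A prior count of 2 was fitted over all genes, but it is compared here for the called members' log2 fold changes alone. It cannot change a p-value. With library size alone, 2 members were called higher (METTL26 and PUS1), the members' median was 0.0658 and 3 other RNA modification genes were called lower. Over all genes, 29.7% of calls were then higher, against 50.1%. With RLE size factors and with DESeq2, 0 members were called lower. With the length trend removed, the members' median was 0.0901 and 1 other RNA modification gene was called lower, as with the replicate block (1) and a mean CPM of at least 1 (1). For these differences the cause was not tested. PUS1 and METTL26 were the members called in all 9 other alternatives that kept the 4 libraries. NSUN2 was called in 8 of 9, FTSJ1, TRMT13 and TRMT112 in 7 each, and PUSL1 in 5.

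Leaving out a library leaves 1 sample in a group, which is assumed to vary like the others. From 1 (without sh812 replicate 1) to 12 members (without shNC replicate 2) were then called higher and 1 to 2 lower, with a median from 0.0735 to 0.103. Of the other RNA modification genes, 3 to 19 were called higher and 0 to 2 lower. All genes called ran from 587 without sh812 replicate 1 and 682 without sh812 replicate 2 to 3252 without shNC replicate 2. Both groups carry replicate numbers 1 and 2. Deviations of same-numbered libraries had a correlation of 0.0367 across genes, which gives no sign of pairing. The replicate block called the same 7 members, with METTL3 at -2.42, and 2001 genes in all against 1822. Members with few counts, such as METTL7A, METTL27 and ADAT3, have wide errors.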
